A study of Homo sapiens with 6 samples.

Results

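The 7 genes described here encode the enzymes that break haem down and 3 proteins that move haem or its porphyrin precursors across membranes. They were chosen by name, 7 of the 23858 genes listed, and compared gene by gene between NB4 cells labelled control (whether a vehicle was given is not stated) and NB4 cells given arsenic trioxide for 6 h, with 3 libraries in each group. NB4 is an established human line of acute promyelocytic leukaemia with the PML-RARA fusion, which both groups therefore share, and arsenic trioxide is in clinical use for this disease, where it causes the fusion protein to be degraded. The sources used here give no dose and do not say whether libraries came from separate cultures. The spread behind each p-value is therefore that of these samples alone and may be technical. Levels are the authors' deposited RPKM values (reads scaled by a gene's exon length and by library depth), and libraries held 19361333 to 22609019 counted reads.

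Haem is the iron-holding porphyrin of haemoglobin, cytochromes and the myeloperoxidase of promyelocytes, and free haem is toxic. Haem oxygenase, encoded by the inducible HMOX1 and the constitutive HMOX2, opens the ring and releases iron, carbon monoxide and biliverdin, and the biliverdin reductases BLVRA and BLVRB turn biliverdin into bilirubin. SLC48A1 (HRG1) carries haem from endosomes and lysosomes into the cytosol, FLVCR1 is known as a haem exporter of the plasma membrane, and ABCB6 is an ATP-driven porphyrin transporter. Transcription of HMOX1 is a standard readout of NRF2, which activates it, and of BACH1, a repressor that haem itself removes.

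After 6 h of arsenic trioxide, HMOX1, SLC48A1 and BLVRB rose, and HMOX2 and FLVCR1 fell (limma-trend on log2 of RPKM + 1, Benjamini-Hochberg adjusted p under 0.05 over 16803 genes tested). The increases ran from 2.61-fold for BLVRB to 288-fold for HMOX1 as ratios of group means, while HMOX2 was 1.57-fold and FLVCR1 1.67-fold lower. BLVRA and ABCB6 had a mean under 1 RPKM over the 6 libraries and were not tested. Of all genes tested, 12.0% were called higher and 13.4% lower. HMOX1 itself passed the filter of 1 RPKM only through its treated libraries. The lowest and highest libraries of the groups did not overlap for any of the 7 members, upward in 5 and downward in 2, where 21.5% of all listed genes were separated upward and 18.9% downward (21.9% and 22.6% of the tested genes). The median log2 difference of all tested genes was -0.0033.

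Promoter sequence is shown for the 2 transporters with the largest fold among the transport genes, SLC48A1 and ABCB6, and for HMOX2, the haem oxygenase that fell. RefSeq promoters (GRCh38.p14) matched 6 of the 7 members, all but HMOX1. The 250 bases before the annotated start were searched on both strands for 8 motifs, and capitals mark matches to 7 of them. These were the antioxidant response element core TGACNNNGC, the AP-1 site TGANTCA, the heat shock element GAANNTTC, the E-box CACGTG, the metal response element cores TGCACNC and TGCGCNC, and the GC box GGGCGG. Matches to the eighth, CCAAT, were counted but not capitalised.
SLC48A1: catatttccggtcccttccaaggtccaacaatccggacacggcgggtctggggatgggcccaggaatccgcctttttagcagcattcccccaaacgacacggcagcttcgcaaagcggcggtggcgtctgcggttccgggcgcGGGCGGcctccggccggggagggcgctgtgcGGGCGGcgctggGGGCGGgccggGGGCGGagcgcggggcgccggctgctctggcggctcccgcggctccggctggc
ABCB6: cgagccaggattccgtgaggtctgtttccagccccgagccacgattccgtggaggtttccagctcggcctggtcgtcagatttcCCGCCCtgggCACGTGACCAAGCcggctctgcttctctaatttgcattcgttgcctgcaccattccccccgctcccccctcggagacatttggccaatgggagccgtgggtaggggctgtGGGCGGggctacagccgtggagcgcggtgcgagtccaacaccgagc
HMOX2: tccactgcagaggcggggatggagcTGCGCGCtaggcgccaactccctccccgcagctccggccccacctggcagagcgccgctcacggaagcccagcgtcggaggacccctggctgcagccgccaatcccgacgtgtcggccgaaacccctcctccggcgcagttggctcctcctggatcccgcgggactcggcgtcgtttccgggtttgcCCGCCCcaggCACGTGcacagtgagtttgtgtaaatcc
These stretches lie at chr12:47772988-47773237 on the plus strand, chr2:219218959-219219208 on the minus strand and chr16:4474486-4474735 on the plus strand. The RefSeq starts differ from the starts of the gene models whose levels are given below. The SLC48A1 stretch lies inside its gene model (47753916 to 47782753), and those of ABCB6 and HMOX2 reach into theirs. Starts further upstream in SLC48A1 were not searched. In ABCB6 an E-box at position -156, counted from the base before the start as -1, overlaps an antioxidant response element core at -152. In the HMOX2 promoter shown an E-box stands at -28, a GC box at -38 and a TGCGCNC match at -225. A second HMOX2 promoter in the table, at chr16:4495608-4495857, held 0 matches to all 8 motifs. In SLC48A1 the only matches were 4 GC boxes, at -107, -76, -64 and -53. Among 35116 promoters in the table, 6.34% held the E-box, 10.9% the antioxidant response element core, 16.8% TGCGCNC and 42.6% the GC box in the same window. FLVCR1 held 2 GC boxes, BLVRA held 2 and a TGCACNC match (9.87% of promoters), and BLVRB held 6 and a TGCGCNC match. CCAAT, held by 32.0% of promoters, stood at -73 in ABCB6, -127 in the HMOX2 promoter shown, -87 in FLVCR1 and -25 in BLVRA. It was absent from SLC48A1 and BLVRB. A match describes the letters only, and no binding was measured.

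Of the haem oxygenases, HMOX1 (chromosome 22, 35380361 to 35394214, GRCh38, plus strand) stood at 1.23, 0.966 and 0.662 RPKM in control replicates 1, 2 and 3, and the treated replicates 1, 2 and 3 reached 295, 203 and 328 RPKM. HMOX1 RNA was scarce in every control library and abundant in every treated one, from 141 reads over the 3 controls to 43502 reads over the 3 treated libraries. It was the 16713th most abundant of the listed genes in control and the 57th after treatment by group mean. The log2 difference was 7.13 ± 0.19 (SE, limma-trend adjusted p = 2.13e-05). HMOX2 (chromosome 16, 4474690 to 4510347, plus strand) was at 21.6, 21.0 and 20.3 RPKM in the controls and at 14.5, 13.1 and 12.4 RPKM in the treated libraries. All 3 treated libraries lay below all 3 controls, and the log2 difference was -0.62 ± 0.07 (SE, limma-trend adjusted p = 0.00219). Of the exon bases of HMOX2, 6.01% are shared with NMRAL1 on the other strand, and since the kit does not mark strand, reads there cannot be told apart.

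Because RPKM is per exon length, levels of both oxygenase genes can be added. HMOX1 made up 5.41%, 4.41% and 3.16% of the summed haem oxygenase RPKM in the controls and 95.3%, 94.0% and 96.4% after arsenic trioxide. The mean share went from 4.33 ± 1.13% to 95.2 ± 1.20% (SD, n = 3 each, exact two-sided permutation test p = 0.1, the smallest that 3 against 3 allows). Thus HMOX2 supplied most of the haem oxygenase RNA in control cells and HMOX1 most of it in treated cells. The sum of both genes was 21.9 ± 0.947 RPKM in control and 289 ± 64.5 RPKM after treatment (SD, n = 3 each), 13.2-fold higher, so the lower HMOX2 level was small beside the gain in HMOX1.

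**Figure D1:**
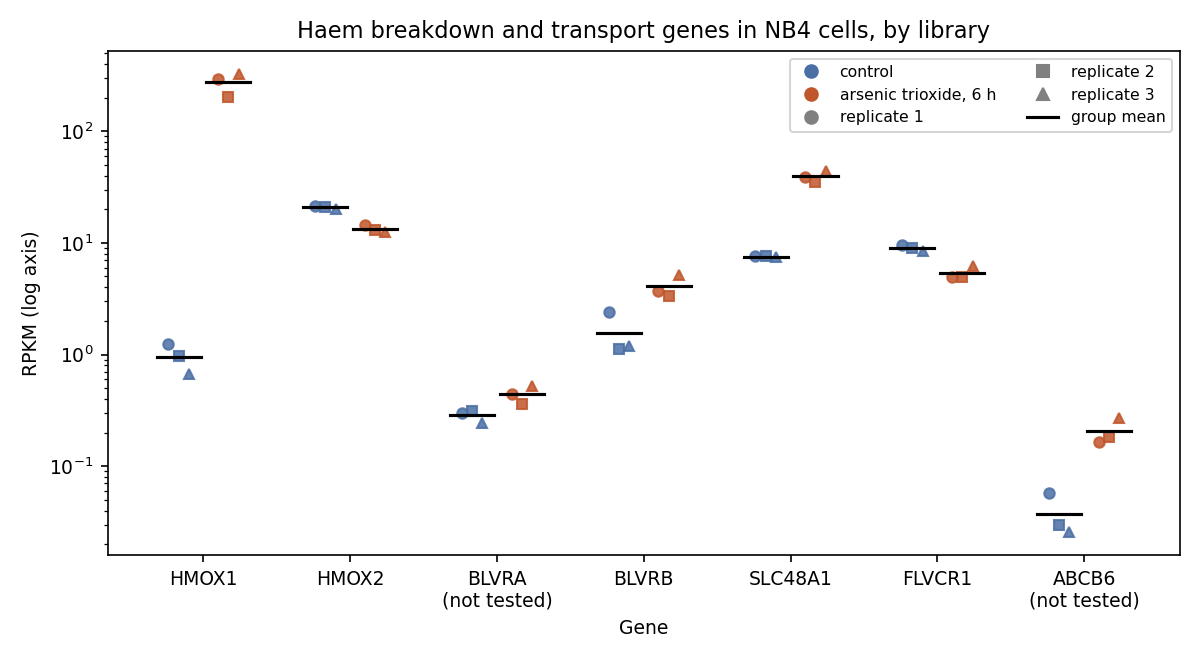
RPKM on a log axis of the 7 genes in the 3 control (blue) and 3 arsenic trioxide (orange) libraries, with marker shape for the replicate and a black line at the group mean. HMOX1 moved from about the level of BLVRB in control to the highest of the 7 after treatment, HMOX2 and FLVCR1 lay lower in every treated library, and BLVRA and ABCB6 were below 1 RPKM in every library.

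The biliverdin reductases catalyse the next step. BLVRB (chromosome 19, 40447765 to 40465840, minus strand), which also acts as a flavin reductase, was at 2.38, 1.12 and 1.20 RPKM in control replicates 1, 2 and 3, and the treated replicates 1, 2 and 3 reached 3.74, 3.32 and 5.19 RPKM. Control replicate 1 stood well above the other controls but below the lowest treated library. The log2 difference was 1.0 ± 0.23 (SE, limma-trend adjusted p = 0.02). Leaving out control replicate 2 (0.0615) or 3 (0.0628), or arsenic trioxide replicate 1 (0.0513) or 3 (0.0549), raised the adjusted p over 0.05, and its adjusted p ran from 0.00213 to 0.0628 over 15 other settings. BLVRA (chromosome 7, 43758680 to 43807342, plus strand), the main reductase of adult tissues, had 10 to 11 reads per control library and 14 to 21 per treated library. Its levels were 0.299, 0.312 and 0.243 RPKM in control and 0.443, 0.363 and 0.525 RPKM after treatment. The ratio of its pooled read shares was 1.57, with a 95% exact interval of 0.996 to 2.52 that covers counting error only, so a difference was not detectable at this depth. With no filter on low values BLVRA had a limma-trend adjusted p of 0.144, and in limma-voom on the recovered reads of all listed genes, chosen after seeing the data, 0.322.

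BLVRB exceeded BLVRA in each library, by 7.95, 3.58 and 4.92 times in the controls and by 8.45, 9.14 and 9.90 times after treatment. The mean ratio was 5.49 ± 2.24 and 9.16 ± 0.725 (SD, n = 3 each, exact two-sided permutation test p = 0.1), with control replicate 1 close to the treated libraries. Summed reductase RPKM was 1.85 ± 0.718 in control and 4.53 ± 1.06 after treatment (SD, n = 3 each), 2.45-fold higher where summed haem oxygenase was 13.2-fold higher. Haem oxygenase RPKM was 8.53, 15.4 and 14.6 times reductase RPKM in the controls and 73.9, 58.8 and 59.5 times in the treated libraries. At the level of RNA, the first step of the route was thus in greater excess over the next in every treated library.

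**Figure D2:**
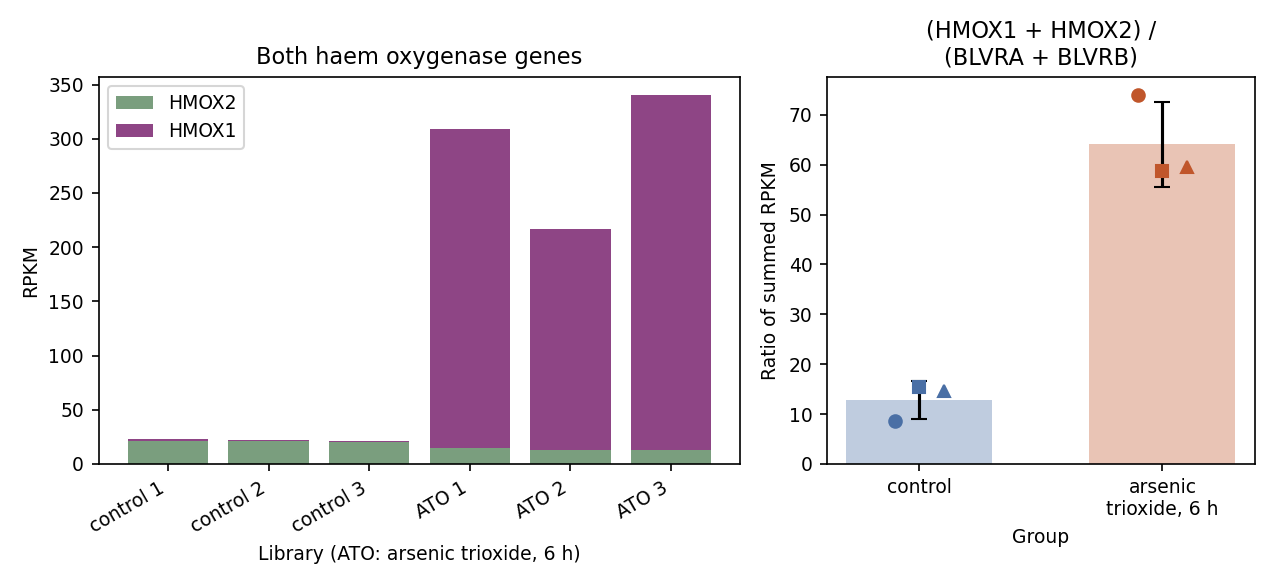
Left, stacked bars of HMOX2 and HMOX1 RPKM in each library, from 20.9 to 22.8 in the controls and from 216 to 340.1 after arsenic trioxide. Right, the ratio of summed haem oxygenase to summed biliverdin reductase RPKM, with points for libraries, bars for means and error bars for SD (n = 3 each), all treated points above all controls.

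Of the transporters, SLC48A1 (chromosome 12, 47753916 to 47782753, plus strand) was at 7.59, 7.58 and 7.41 RPKM in the controls and at 38.9, 34.7 and 44.4 RPKM in the treated libraries. The controls were nearly equal and every treated library lay far above them, a 5.23-fold rise of the group mean with a log2 difference of 2.24 ± 0.09 (SE, limma-trend adjusted p = 0.000114). Of the exon bases of SLC48A1, 2.34% are shared with RAPGEF3 and HDAC7 on the other strand. FLVCR1 (chromosome 1, 212858255 to 212899363, plus strand) was at 9.47, 8.99 and 8.42 RPKM in control and at 4.94, 5.0 and 6.17 RPKM after treatment. The groups did not overlap, and the log2 difference was -0.65 ± 0.11 (SE, limma-trend adjusted p = 0.00641). RNA of the gene for the importer into the cytosol and RNA of the gene for the exporter thus moved in opposite directions. Levels are per gene, so transcript forms of either gene were not told apart. SLC48A1 RPKM was 0.802, 0.843 and 0.879 times that of FLVCR1 in the controls and 7.87, 6.95 and 7.20 times after treatment.

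ABCB6 (chromosome 2, 219209766 to 219219017, minus strand) was close to the limit of detection. It had 6, 3 and 3 reads in the controls (0.0571, 0.0298 and 0.0255 RPKM) and 19, 20 and 31 reads in the treated libraries (0.164, 0.181 and 0.271 RPKM). All treated libraries lay above all controls, and the ratio of pooled read shares was 5.54, with a 95% exact interval of 2.98 to 11.2 for counting error only. On the scale of log2 of RPKM + 1 this is a difference of only 0.22 (limma-trend with no filter, adjusted p = 0.0286), where 10.1% of the 23858 genes were called higher and 9.55% lower. Limma-voom on the recovered reads of all listed genes gave 2.37 ± 0.57 (SE, adjusted p = 0.00717), where 13.0% were called higher and 12.2% lower. In the authors' deposited table ABCB6 has a log2 fold change of 2.44 (adjusted p of 0.00252) and BLVRA one of 0.63 (adjusted p of 0.485). There 6 of the 7 members have an adjusted p under 0.05, 4 upward and 2 downward, and so do 12.6% of its genes upward and 12.7% downward. A gene model annotated on the same strand, not analysed here, shares 54.7% of the exon bases of ABCB6. Whether reads on those shared bases were left out of the ABCB6 count was not tested.

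Ordered by mean RPKM, the controls ran HMOX2, FLVCR1, SLC48A1, BLVRB, HMOX1, BLVRA and ABCB6, and only the ranges of BLVRB and HMOX1 overlapped between neighbours. After arsenic trioxide the order was HMOX1, SLC48A1, HMOX2, FLVCR1, BLVRB, BLVRA and ABCB6, and only FLVCR1 and BLVRB overlapped. Within groups most members, with the untested BLVRA and ABCB6 counted, also ranked the libraries alike. Some ranks rest on small differences, as ABCB6 had 3 reads in each of control replicates 2 and 3. In control, 6 of 7 were highest in replicate 1 and 6 of 7 lowest in replicate 3, where 33.3% and 32.6% of tested genes were. After treatment, 6 of 7 were highest in replicate 3, where 41.1% of tested genes were, and 4 of 7 lowest in replicate 2, where 33.1% were. Control replicate 1 and arsenic trioxide replicate 3 also stood apart on the second principal component (21.3 and 23.0, against -14.8 to -6.85 in the others). With both left out, a setting chosen after seeing the data, the 5 tested members kept their calls, with log2 differences of 7.09 for HMOX1, 2.15 for SLC48A1, 1.07 for BLVRB, -0.55 for HMOX2 and -0.70 for FLVCR1 (limma-trend adjusted p = 0.00266 to 0.0206).

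**Figure D3:**
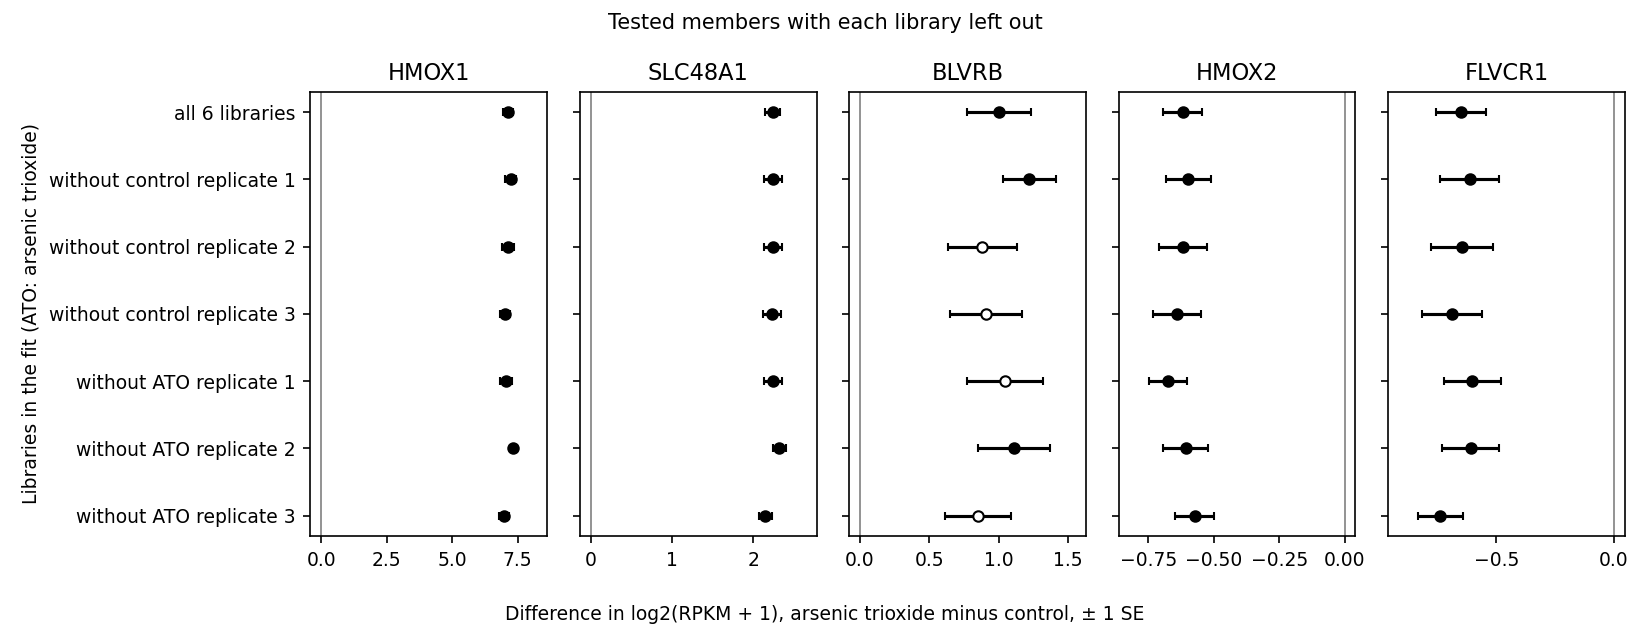
Difference in log2 of RPKM + 1 with 1 SE for the 5 tested members, with all 6 libraries and with each left out in turn; filled points have an adjusted p under 0.05. Each gene kept its direction, and only BLVRB lost its call, in 4 of the 6 fits (open points).

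The genes whose log2 profile over the 6 libraries was most like that of HMOX1 were C2orf42 (Pearson's r 0.9998), PXN, which encodes the focal adhesion protein paxillin (0.9992), NECAB3 (0.9991), the non-coding RNA LUCAT1 (0.999) and the member SLC48A1 (0.9989). The 6 points share libraries and fall into 2 groups, and 114 tested genes had an r over 0.99. Their sizes differed, from log2 differences of 0.84 for C2orf42 and 0.78 for PXN to 1.19 for NECAB3 and 3.18 for LUCAT1. Likeness was sought among tested genes only, and PXN and LUCAT1 passed the filter only through their treated libraries, as HMOX1 did.

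A list of 58 other genes of the haem pathway was read from the same fit. The table held 51 of them, and 44 were tested, of which 12 rose and 7 fell (12.0% and 13.4% of all tested genes). Their median log2 difference was 0.06, against -0.0033 for all tested genes. The calls of 8 held in each of the 16 other settings that gave them a value, namely ALAS1, FECH, SLC25A37, ABCB10, FTH1, FTL, MAFF (no value with a filter at 5 RPKM) and MAFG. Without 1 library the number that fell ranged from 2 (without control replicate 3) to 6.

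In haem synthesis 2 of 8 tested enzymes rose, where 12.0% of all tested genes did. The first and rate-limiting enzyme ALAS1 rose from 50.3 ± 4.54 to 93.0 ± 16.3 RPKM and the last enzyme FECH, which inserts iron, from 3.32 ± 0.257 to 7.81 ± 1.87 RPKM (SD, n = 3 each), with log2 differences of 0.86 and 1.01. Of the mitochondrial genes that serve haem synthesis, the iron importer mitoferrin 1, SLC25A37, rose (0.45). ABCB10, an inner membrane transporter, fell from 41.9 ± 3.92 to 24.1 ± 4.65 RPKM (SD, n = 3 each). SLC25A39, a mitochondrial glutathione carrier, fell by 0.26, a call lost without each library except arsenic trioxide replicate 1 (limma-trend adjusted p = 0.0766 to 0.14). Haem synthesis and breakdown genes therefore both held members that rose.

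Among other genes of haem transport and binding, 1 of 4 tested rose, the haem-binding HEBP1 (0.53), and 1 fell, PGRMC2 (-0.45), which has been described as a haem chaperone. Of all tested genes 12.0% rose and 13.4% fell. POR, which hands electrons to haem oxygenase, rose from 11.7 ± 0.493 to 16.2 ± 2.28 RPKM (SD, n = 3 each). The call for POR was lost without each library except arsenic trioxide replicate 2 (limma-trend adjusted p = 0.0559 to 0.0794). CYB5R3, the other gene for electron supply, was at 6.84 ± 0.638 and 7.06 ± 0.467 RPKM (SD, n = 3 each, adjusted p = 0.784). Of the genes for bilirubin conjugation and export only ABCC2 was tested, at 1.37 ± 0.185 and 0.706 ± 0.188 RPKM (SD, n = 3 each, adjusted p = 0.0551). ABCC2 passed the filter only through its control libraries.

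Haem oxygenase also releases iron, and of 10 genes for its storage, export, uptake and sensing 3 rose and 3 fell. The shares of all tested genes were 12.0% and 13.4%. Both ferritin chains rose, the heavy chain FTH1 from 4.70 ± 1.18 to 21.2 ± 2.46 RPKM and the light chain FTL from 474 ± 25.1 to 983 ± 97.1 RPKM (SD, n = 3 each), although processed pseudogenes can share their reads. The iron chaperone PCBP1 fell by 0.28, a call lost without control replicate 2 (limma-trend adjusted p = 0.0612) or 3 (0.0672) or arsenic trioxide replicate 1 (0.0617). NCOA4, which sends ferritin to lysosomes, fell by 0.26, a call lost without control replicate 2 (0.0752) or 3 (0.0615) or arsenic trioxide replicate 2 (0.0557) or 3 (0.0502). The remaining called genes, named after their values were seen, were the transferrin receptor TFRC (-0.58) and the iron-sensing aconitase ACO1 (0.36). TFRC lost its call without control replicate 3 or any 1 treated library (0.0688 to 0.0875), and ACO1 without any 1 library except arsenic trioxide replicate 1 (0.0572 to 0.0824). The iron exporter SLC40A1 was at 2.41 ± 0.504 and 2.69 ± 0.341 RPKM (SD, n = 3 each, adjusted p = 0.612).

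Of 11 genes that control HMOX1 transcription 4 rose and 0 fell in limma-trend, where 12.0% and 13.4% of all tested genes did. MAFK and MTF1 were not called but lay lower in every treated library than in any control. MTF1 was at 8.07 ± 0.491 and 6.58 ± 0.326 RPKM (SD, n = 3 each, limma-trend adjusted p = 0.0681). The small MAF factors, partners of NRF2 and BACH1 on DNA, were split. MAFG rose from 14.6 ± 2.95 to 31.3 ± 5.06 RPKM and MAFF from 0.453 ± 0.0457 to 1.91 ± 0.0381 RPKM (SD, n = 3 each), while MAFK was at 8.29 ± 0.891 and 6.33 ± 0.599 RPKM (adjusted p = 0.0624). MAFF passed the filter only through its treated libraries. The stress factor ATF4 rose (0.57), a call lost without arsenic trioxide replicate 1 (limma-trend adjusted p = 0.0753), 2 (0.0664) or 3 (0.0613). The repressor BACH1 rose by 0.30, from 11.4 ± 0.275 to 14.3 ± 0.632 RPKM (SD, n = 3 each), a call lost without control replicate 1 (0.0505), 2 (0.0503) or 3 (0.0537). NFE2L2, which encodes NRF2, was at 18.7 ± 1.06 and 20.2 ± 0.654 RPKM (adjusted p = 0.27), and its inhibitor KEAP1 at 59.9 ± 6.89 and 68.0 ± 10.8 RPKM (adjusted p = 0.364; SD, n = 3 each). The haem-regulated kinase EIF2AK1 was at 47.9 RPKM in both groups (log2 difference -0.0011 ± 0.07 SE, adjusted p = 0.992).

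**Figure D4:**
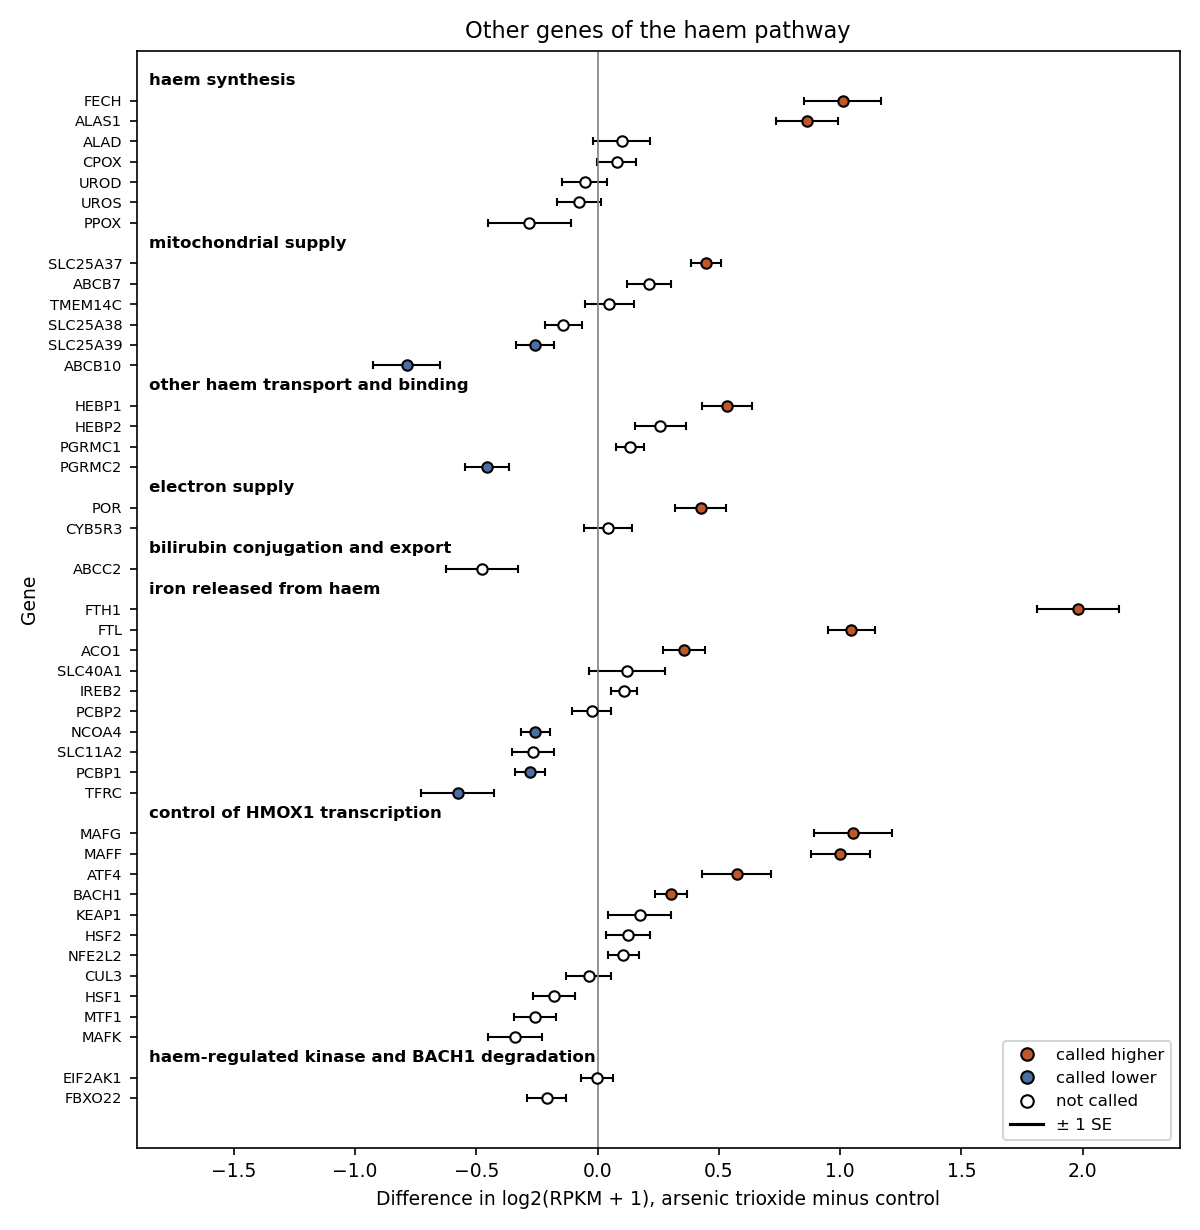
Difference in log2 of RPKM + 1, arsenic trioxide minus control, with 1 SE, for tested genes of the haem pathway list grouped by role (1 is not shown); orange points rose, blue points fell and open points were not called. FTH1 had the largest difference (1.98) and ABCB10 the largest fall (-0.79) of these genes.

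The labelled cell type was checked against marker lists. Of 7 promyelocyte markers, 6 were listed, with a summed level of 1039 to 1435 RPKM in control and 689 to 1041 RPKM in treated libraries. Of 10 erythroid markers only ALAS2 was listed, at 0.0853 to 0.387 RPKM over all libraries. Of 8 macrophage markers VSIG4 and CD14 were listed, summing to 3.64 to 7.25 RPKM in control and 7.16 to 14.1 RPKM after treatment. The part of these shifts in the HMOX1 and SLC48A1 results was not tested, and in bulk RNA fewer cells of a type and less RNA per cell cannot be told apart.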

How the data were processed

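Total RNA of NB4 cells was depleted of ribosomal RNA and sequenced in 3 control and 3 arsenic trioxide libraries. Per the submitters' processing notes, HISAT2 2.1.0, HTSeq and DESeq2 were used with hg38. Duplicate reads were removed, per the file headers. The deposited table gives RPKM per gene and library, and the authors' comparison: per the file headers, a mean normalized signal, log2 fold change and error, a test score, and p-values before and after adjustment.

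Treatment was tested on log2(RPKM + 1) in limma-trend (limma 3.58.1, R 4.3.3) without covariates. The filter was a mean over all libraries of 1 RPKM or more (16803 genes), and Benjamini-Hochberg adjusted p-values under 0.05 were called. Whole reads were recovered from RPKM with GENCODE 29 exon lengths (within 0.01 reads for all 6 values of 93.0% of genes, and of 100.0% once the authors' deposited mean settled the length). They served the limma-voom alternatives and the counting intervals. No listed gene had under 21 reads in all. Single ratios were compared with exact permutation tests over 20 assignments. The scripts were tested on simulated data. The members, lists and tests were chosen with earlier results of these data known. Named were the 7 members, up to 4 called genes per role of the haem pathway list with the smallest p-values, and the 5 profiles most like HMOX1. Other pathway genes given with values (TFRC, ACO1 and genes that were not called or not tested) were chosen after their values were seen. Genes absent from the table were not analysed here, and 1 called pathway gene and 1 marker list are counted or checked but not reported here. Alternatives were other pseudocounts, filters, scalings, limma-voom, a replicate block and leaving out libraries.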

Additional observations from a re-analysis of the deposited data

How the results depend on the processing

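The 5 tested members kept their direction in each setting run, and HMOX1, HMOX2, SLC48A1 and FLVCR1 kept their calls. Log2 differences ran from 5.53 to 8.19 for HMOX1, from 1.82 to 2.38 for SLC48A1, from 0.47 to 1.44 for BLVRB, from -0.68 to -0.50 for HMOX2 and from -0.74 to -0.43 for FLVCR1, the smallest sizes with a pseudocount of 5, which shrinks low genes. With 1 library left out BLVRB ranged from 0.85 to 1.22 and lost its call in 4 of 6 fits. Over the same fits genes called higher were 1331 to 1525 (2021 with all libraries), genes called lower 1427 to 1908 (2252), and other haem pathway genes called lower 2 to 6 (7 with all libraries). With control replicate 1 and arsenic trioxide replicate 3 both left out the counts were 1200, 1484 and 2. Limma-voom called 12 pathway genes lower, both with the filter and on all listed genes. Among all genes it called 2739 of 16803 lower with the filter. On all listed genes it called 2903 (12.2%) lower and 3104 (13.0%) higher. Causes of these changes were not tested, and the fits with libraries left out also hold fewer libraries. The untested BLVRA and ABCB6 had log2 differences of 0.49 and 1.14 with a pseudocount of 0.1, 0.043 and 0.047 with 5, and 0.62 and 2.37 in limma-voom. Scaling by median-ratio or upper quartile factors moved the median of all tested genes to -0.02 and 0.03. Same-numbered libraries did not deviate together (r of -0.085, 0.148 and -0.083 across genes), and only 2 of 6 libraries correlated best with their own number. The deviations were taken within groups of 3 libraries, so this check cannot exclude that the numbers pair samples. The labels do not say whether they do. With the replicate block 4 pathway genes were called lower, and all 5 tested members kept their calls. That fit called 1460 of the 16803 tested genes higher and 1616 lower. With 3 to 6 reads per control library for ABCB6 and 10 to 11 for BLVRA, few reads limit what can be told of both. For ABCB6 the exon bases shared with another gene model are a further limit.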

Other observations

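Of the haem pathway list 7 genes lay under the filter and were not tested. SLC49A3, listed under its older symbol MFSD7 and related to the FLVCR transporters, was at 0.749, 0.508 and 0.268 RPKM in control replicates 1, 2 and 3, against 1.53, 0.91 and 1.69 RPKM in the treated replicates. FLVCR2, the closest relative of FLVCR1, was at 0.775 ± 0.189 and 1.0 ± 0.20 RPKM (SD, n = 3 each), and its groups overlapped where those of FLVCR1 did not. HP, which encodes the haemoglobin-binding haptoglobin, was at 0.476, 0.344 and 0.507 RPKM in control and at 0.282, 0.131 and 0.295 RPKM after treatment. The haem exporter ABCG2 had 6 to 12 reads per library.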
